A study of Homo sapiens with 6 samples.

Results

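The 2′-5′-oligoadenylate synthetase (OAS) family and ISG20 were examined in HepG2 cells depleted of DGUOK. The 5 genes, OAS1, OAS2, OAS3, OASL and ISG20, were picked by symbol out of 34036 genes in the count table, of which 24670 had a count. They were chosen with the siDGUOK against siControl values already known, so their values in that contrast are a description and not a test. All 5 passed the filter on low counts, as did 14476 genes in all.

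HepG2 is a human liver cancer line that keeps many hepatocyte functions, and DGUOK encodes the mitochondrial deoxyguanosine kinase. Poly(A) RNA was sequenced from 3 cultures given a non-targeting siRNA (siControl) and 3 cultures given a pool of siRNAs against DGUOK (siDGUOK), all collected 48 h after lipid transfection. The pool was not separated into single siRNAs in these libraries. Library totals were 19065684, 18915508 and 10527216 counts in siControl replicates 1 to 3, and 18613138, 15978314 and 21334876 counts in siDGUOK replicates 1 to 3.

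OAS1, OAS2 and OAS3 bind double-stranded RNA and then join ATP into 2′-5′-linked oligoadenylates (2-5A), a messenger that leads to the cleavage of cellular and viral RNA. OASL carries an OAS-like domain that does not make 2-5A, and has been linked to RNA sensing through RIG-I. ISG20 is a 3′-to-5′ exonuclease of the DEDDh group, and type I interferon induces all of these genes in many cell types, hepatocytes included.

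RefSeq promoters (GRCh38.p14, 250 bases before to 50 after the start site) were matched for 3 of the 5 genes, OAS1, OAS3 and ISG20, and not for OAS2 and OASL. They are shown because interferon-regulated transcription factors bind short A-rich elements close to the start sites of such genes. Capitals mark matches on either strand to AANNGAAA, the core bound by interferon regulatory factors, or to GAAANNGAAA, an interferon-stimulated response element that contains that core. The windows are OAS1 at chr12:112906712-112907011, OAS3 at chr12:112938224-112938523 and ISG20 at chr15:88638766-88639065, all on the plus strand and written 5′ to 3′.
OAS1: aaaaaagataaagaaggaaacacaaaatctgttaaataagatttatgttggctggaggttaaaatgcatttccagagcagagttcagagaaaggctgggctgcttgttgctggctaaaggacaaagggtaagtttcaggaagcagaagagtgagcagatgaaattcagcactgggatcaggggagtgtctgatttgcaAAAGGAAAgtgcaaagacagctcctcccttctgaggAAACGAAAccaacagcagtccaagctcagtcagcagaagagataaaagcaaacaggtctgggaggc
OAS3: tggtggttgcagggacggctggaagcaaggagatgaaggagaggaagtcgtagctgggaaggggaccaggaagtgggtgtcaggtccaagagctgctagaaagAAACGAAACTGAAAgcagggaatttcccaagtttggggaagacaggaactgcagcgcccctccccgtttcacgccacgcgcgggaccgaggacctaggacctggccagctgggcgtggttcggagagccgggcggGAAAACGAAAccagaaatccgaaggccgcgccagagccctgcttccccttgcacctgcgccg
ISG20: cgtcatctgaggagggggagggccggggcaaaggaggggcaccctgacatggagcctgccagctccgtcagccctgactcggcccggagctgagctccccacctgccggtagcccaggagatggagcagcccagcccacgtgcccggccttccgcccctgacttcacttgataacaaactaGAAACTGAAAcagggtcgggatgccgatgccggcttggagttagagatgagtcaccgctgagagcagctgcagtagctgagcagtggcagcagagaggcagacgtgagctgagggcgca

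The OAS1 window held 2 copies of the shorter core, starting 52 and 16 bases before the start site, and no copy of the longer element as spelled above. Interferon-stimulated response elements with another spacing were not searched for, so this does not show that OAS1 lacks one. The OAS3 window held 3 copies of the core, and 2 of them lay within the longer element, which began 143 and 12 bases before the start site. The ISG20 window held a single longer element, 69 bases before the start site. Over 27305 promoters of the same length, 23.2% held the core at least once, 5.88% at least 2 times and 1.34% at least 3 times, whereas 3.65% held the longer element and 0.271% held it at least 2 times. Among 44 other interferon-stimulated genes, 36 had a promoter, of which 30 held the core and 24 the longer element. The gamma-activated site TTCNNNGAA, not capitalised above, was in the OAS1 window once and in 7.88% of all promoters. OAS1 had 1 CpG in its window, against 20 in OAS3, 15 in ISG20 and a median of 14 over all promoters. These matches describe letters in a window and do not show binding.

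DGUOK itself was measured first as a check of the labels, because the treatment field names the control siRNA for all 6 samples and the groups came from the sample titles. It stood at 54.4, 53.1 and 48.2 CPM (counts per 1000000 counts of the library) in the siControl libraries and at 9.08, 10.5 and 6.72 CPM in the siDGUOK libraries. All 3 siDGUOK libraries were therefore low, as their titles say, with a log2 fold change of −2.57 (SE 0.19; edgeR quasi-likelihood test, adjusted p = 1.64e-08). Fold changes are siDGUOK against siControl throughout, and calling a gene required an adjusted p below 0.05 together with a log2 fold change beyond 0.5 in size.

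Of the synthetases, OAS1 (ENSG00000089127.12, chr12:112905856-112933219) was read 1053, 1112 and 545 times in siControl and 2558, 2250 and 2927 times in siDGUOK libraries. Scaled to library size, this gave 56.2, 59.2 and 52.0 CPM against 138, 138 and 135 CPM. The 3 siDGUOK libraries lay close together and far above the 3 siControl libraries, with no overlap. Group means were 55.8 ± 3.67 and 137 ± 2.13 CPM (SD, n = 3), a 2.46-fold difference. The log2 fold change was 1.29 (SE 0.10, 95% interval 1.08 to 1.51), and it stayed between 1.25 and 1.34 when each library was left out in turn. In bulk RNA a change in the number of expressing cells and a change in RNA per cell cannot be told apart.

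OAS3 (ENSG00000111331.12, chr12:112938051-112976460), which binds long double-stranded RNA, starts 4.83 kb beyond the end of OAS1 on the same strand. It stood at 43.3, 28.0 and 47.6 CPM in siControl and at 42.6, 60.6 and 47.8 CPM in siDGUOK libraries. The groups overlapped: the lowest siDGUOK library was below 2 of the siControl libraries, and siControl replicate 2 was the lowest of all 6. Its log2 fold change was 0.35 (SE 0.18, 95% interval −0.04 to 0.74), which did not pass the thresholds. It was 0.15 without siControl replicate 2, 0.20 without siDGUOK replicate 2 and between 0.38 and 0.50 without any one of the other libraries.

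OAS2 (ENSG00000111335.12, chr12:112978395-113011723) lies 1.94 kb beyond OAS3 and was read 5, 25 and 8 times in siControl and 53, 113 and 40 times in siDGUOK libraries. These counts correspond to 0.267, 1.33 and 0.763 CPM against 2.86, 6.96 and 1.84 CPM. The groups did not overlap, but siDGUOK replicate 2 was more than double the other siDGUOK libraries and the gap between the nearest libraries of the groups was small. The log2 fold change was 2.29 with a wide error (SE 0.81, 95% interval 0.59 to 3.99) and was not called. It was 1.57 without siDGUOK replicate 2, and OAS2 was called without siControl replicate 2 (2.95), without siDGUOK replicate 3 (2.61) and by DESeq2 with all libraries (2.29, or 0.71 after shrinkage).

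OASL (ENSG00000135114.12, chr12:121017763-121039246, minus strand) lies apart from the other OAS genes on chromosome 12 and was near the lower end of detection. It was read 25, 0 and 25 times in siControl and 13, 16 and 45 times in siDGUOK libraries, or 1.34, 0 and 2.38 CPM against 0.702, 0.985 and 2.07 CPM. A count of 0 in siControl replicate 2 allows up to 0.197 CPM (upper end of the 95% Poisson interval, counting error only). High and low libraries occurred in both groups, and the log2 fold change of 0.04 had an interval from −2.64 to 2.71. No difference of OASL was detected, and its libraries differed by more than counting error within siControl, where replicates 1 and 3 had 95% Poisson intervals of 0.863 to 1.97 and 1.54 to 3.52 CPM. Its sign turned without siControl replicate 2 (−0.56) or siDGUOK replicate 3 (−0.54), and the value was 0.90 without siControl replicate 3.

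ISG20 (ENSG00000172183.14, chr15:88635670-88656483) was read 357, 285 and 122 times in siControl and 542, 577 and 818 times in siDGUOK libraries. Its levels were 19.1, 15.2 and 11.6 CPM against 29.3, 35.5 and 37.6 CPM. Each siDGUOK library exceeded each siControl library, although both groups spread more widely than for OAS1. Group means were 15.3 ± 3.72 and 34.1 ± 4.34 CPM (SD, n = 3). The log2 fold change was 1.15 (SE 0.20, 95% interval 0.72 to 1.58) and ran from 1.00 to 1.34 when single libraries were left out.

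**Figure D1:**
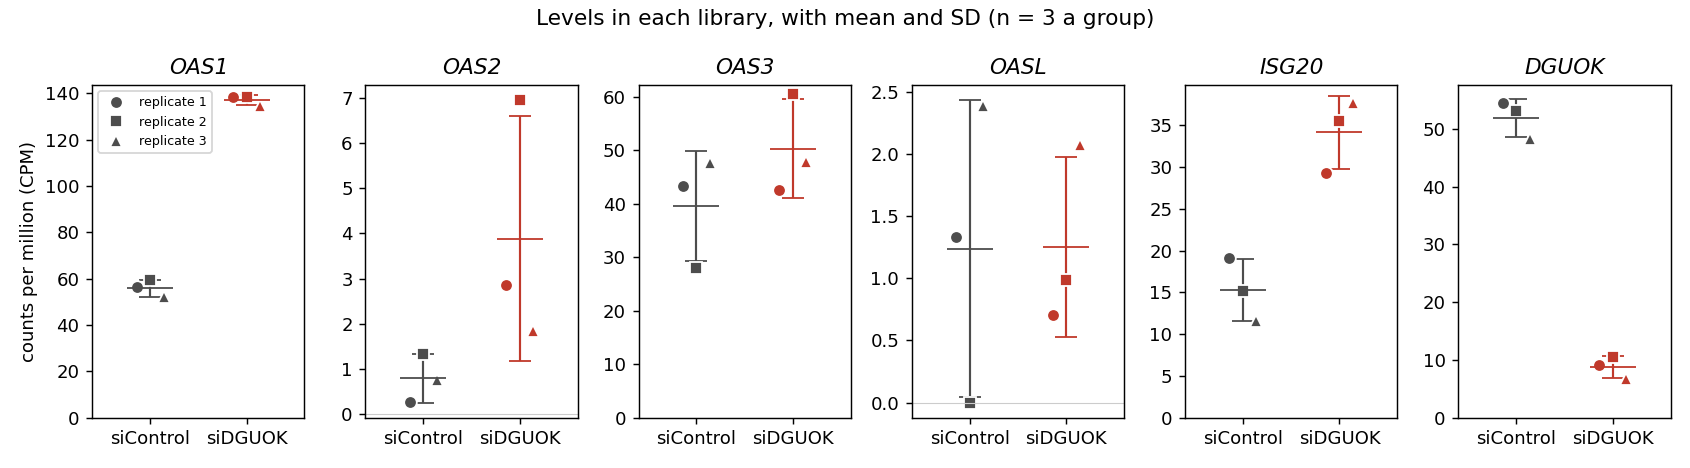
Level of each gene and of DGUOK in CPM (vertical axis, linear, own scale for each gene) in the siControl (grey) and siDGUOK (red) libraries; symbols are replicates 1 to 3, and lines are means with SD. OAS1 lies at 52.0 to 59.2 CPM in siControl and at 135 to 138 CPM in siDGUOK libraries, whereas the groups of OAS3 and OASL overlap.

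In all, 2 of the 5 genes were called, OAS1 and ISG20, beside 14.1% of the 14476 genes tested. Both were called higher, as were 7.42% of all genes tested. In 3 of the 5, OAS1, OAS2 and ISG20, every siDGUOK library lay above every siControl library, a pattern found in 18.7% of all genes. Because the genes were chosen on this contrast, nothing is read from these shares. OAS1 and ISG20 were called in each alternative run. The median log2 fold change was 1.15 for the 5 genes and 0.02 for all genes tested.

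**Figure D2:**
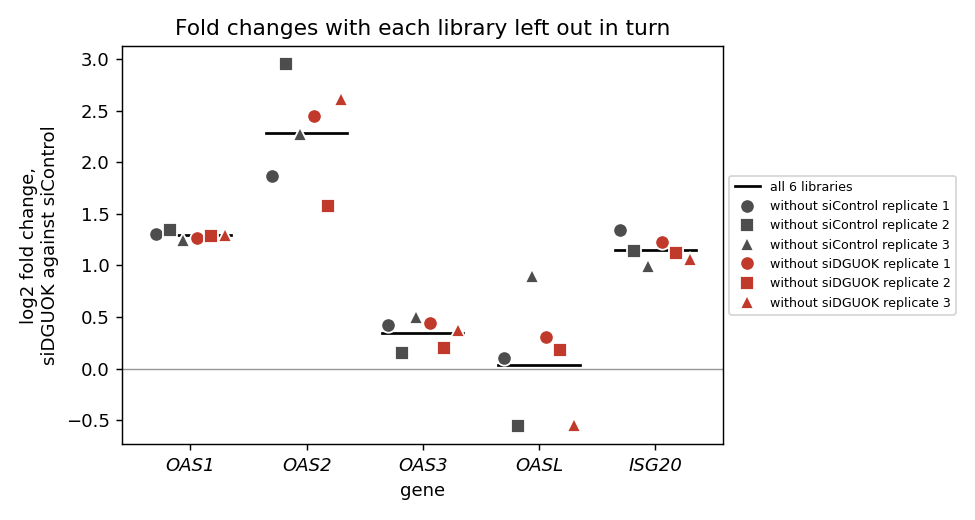
Log2 fold change (vertical axis) of each gene with all 6 libraries (black line) and with each library left out (grey, a siControl library; red, a siDGUOK library; symbol, replicate number). OAS1 stays within 1.25 to 1.34, OAS2 runs from 1.57 to 2.95, and OASL lies on both sides of 0.

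Levels of different genes were compared per kilobase of the canonical Gencode 44 transcript (RPKM). In siControl libraries the order was OAS1 (34.2 ± 2.25), ISG20 (9.66 ± 2.35), OAS3 (6.01 ± 1.56), OASL (0.379 ± 0.365) and OAS2 (0.170 ± 0.115). ISG20, at 7.35 to 12.1 RPKM, lay just above OAS3, at 4.25 to 7.21 RPKM, whereas the libraries of OASL and OAS2 overlapped. In siDGUOK libraries the order was OAS1 (84.1 ± 1.31), ISG20 (21.6 ± 2.74), OAS3 (7.63 ± 1.41), OAS2 (0.841 ± 0.586) and OASL (0.383 ± 0.221), and among neighbours in this order the libraries of the last pair alone overlapped. OAS1 was thus above 85.4% of the tested genes in siControl and above 94% in siDGUOK libraries, and ISG20 above 61.7% and 78.2%. The order depends on the length used: over all annotated exons, which include those of minor transcripts, OAS3 (2.20) and ISG20 (2.13) changed places in siControl libraries.

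The neighbours OAS1 and OAS3 were also set against each other within each library, which removes library size. There were 1.30, 2.11 and 1.09 OAS1 counts for each OAS3 count in siControl and 3.25, 2.28 and 2.81 in siDGUOK libraries. The ranges did not overlap, with siControl replicate 2 and siDGUOK replicate 2 closest to each other. OAS1 and ISG20, on different chromosomes, kept more even proportions, at 2.95, 3.90 and 4.47 OAS1 counts for each ISG20 count against 4.72, 3.90 and 3.58, and these ranges overlapped.

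The genes listed for the 2-5A pathway and for double-stranded RNA binding, 5 besides the OAS genes, were all tested, and 0 were called by edgeR or by DESeq2 (1 had an unadjusted p under 0.05 in edgeR). Over all genes tested, edgeR called 14.1%, and 4425 of 14476 (30.6%) had an unadjusted p under 0.05 in edgeR. The 5 comprised ABCE1, an ATPase of ribosome recycling (log2 fold change 0.01, SE 0.12), PDE12, which degrades 2-5A (−0.23, SE 0.20), AKAP7, whose central domain cleaves 2-5A (−0.71, SE 0.32), and the double-stranded RNA binding proteins EIF2AK2 (−0.01, SE 0.16) and ADAR (−0.16, SE 0.10). The near-zero values of ABCE1 and EIF2AK2 changed sign with the scaling or the filter. Their median was −0.16, beside 0.02 for all genes.

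Proteins that share the nucleotidyltransferase fold of the OAS enzymes gave a similar count. Of 5 listed, 4 were tested and 0 were called by edgeR or DESeq2, with 0 at an unadjusted p under 0.05 in edgeR and a median of −0.19. ILF2, ZFR and STRBP, the most abundant by CPM, had log2 fold changes of 0.16 (SE 0.08), −0.15 (SE 0.09) and −0.31 (SE 0.17). MB21D1, which encodes the DNA sensor cGAS, had 0 counts in each of the 6 libraries.

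Among the DEDDh exonucleases, the group to which ISG20 belongs, 11 of 13 listed besides ISG20 were tested, and 2 were called lower and 0 higher in edgeR and in DESeq2, with a median of −0.20 and 5 at an unadjusted p under 0.05 in edgeR. Over all genes tested, 6.68% were called lower and 30.6% had an unadjusted p under 0.05 in edgeR. ERI2 fell from 31.6 ± 3.96 to 16.0 ± 3.22 CPM (SD, n = 3; log2 fold change −0.99, SE 0.20; edgeR adjusted p = 0.00132). PAN2, a subunit of a poly(A) nuclease, fell from 16.2 ± 0.483 to 8.54 ± 1.76 CPM (−0.92, SE 0.25; edgeR adjusted p = 0.0133), and was not called without siControl replicate 3 (−0.90, adjusted p = 0.0541). AEN and REXO4, the most abundant of the list by CPM with REXO1, stood at 0.36 (SE 0.10) and −0.20 (SE 0.12), and REXO1 at −0.06 (SE 0.15). ISG20L2, named for its likeness to ISG20, had a log2 fold change of 0.37 (SE 0.17; edgeR adjusted p = 0.156).

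**Figure D3:**
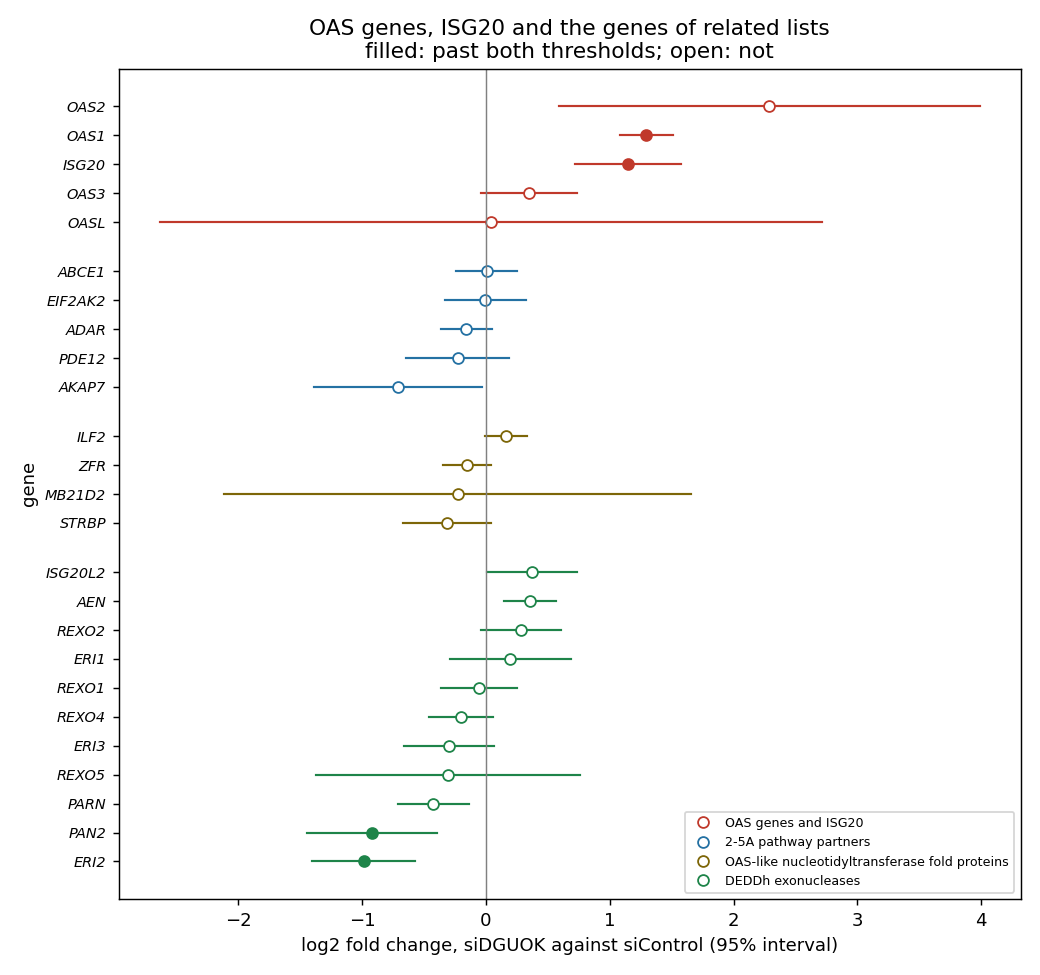
Log2 fold change, siDGUOK against siControl (horizontal axis), with 95% interval for the 5 genes (red) and the tested genes of the 2-5A list (blue), the nucleotidyltransferase fold list (brown) and the DEDDh list (green); filled points were called. OAS1 (1.29) and ISG20 (1.15) are filled on the right, ERI2 (−0.99) and PAN2 (−0.92) on the left.

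The receptors, kinases and transcription factors that carry interferon signals to these genes were listed together with inhibitors such as SOCS1, as 18 genes. Of these, 17 were tested and 0 were called by edgeR or DESeq2, whereas edgeR called 14.1% of all genes tested. An unadjusted p under 0.05 in edgeR was found for 7 of the 17 (41.2%), against 30.6% of all genes. The median log2 fold change was 0.03. IFNGR1, JAK1 and IFNGR2, the most abundant by CPM, had log2 fold changes of 0.03 (SE 0.09), 0.28 (SE 0.11) and −0.11 (SE 0.11). Single calls appeared under other settings: SOCS1, an inhibitor of the pathway (−1.04, SE 0.46), was called lower by edgeR without the count filter (−1.03), with the replicate block (−1.42) and without siDGUOK replicate 1 (−2.19), and the receptor gene IFNLR1 (−0.76, SE 0.31) without siControl replicate 1 (−1.05). Of the interferon genes listed, IFNL1 was read 8, 0 and 0 times in siControl and 4, 0 and 0 times in siDGUOK libraries, and IFNG 0 times in each siControl library and 22, 34 and 0 times in siDGUOK libraries. Neither passed the count filter with all libraries. DESeq2, run without that filter, called IFNG before shrinkage and not after, and edgeR did not call it without the filter but called it higher without siDGUOK replicate 3 (7.76, a fitted value against siControl counts of 0). The other interferon genes of the list were not analysed here.

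Other interferon-stimulated genes were listed to set OAS1 and ISG20 beside genes induced by the same cytokines. Of 44, 39 were tested, and edgeR called 3 higher and 2 lower, beside 7.42% and 6.68% of all genes tested. An unadjusted p under 0.05 in edgeR was found for 8 of the 39 (20.5%), against 30.6% of all genes. In all, 19 had a positive and 20 a negative log2 fold change, and the median was −0.05. The ubiquitin-like modifier ISG15 stood at 40.0, 39.3 and 44.5 CPM in siControl and 55.1, 90.2 and 57.5 CPM in siDGUOK libraries, so that the groups did not overlap and siDGUOK replicate 2 was highest. ISG15 rose by a log2 fold change of 0.71 (SE 0.17; edgeR adjusted p = 0.00462), IFITM1, a membrane protein that restricts viral entry, by 1.36 (SE 0.41; 0.0245), and DDX58, which encodes RIG-I, by 0.64 (SE 0.22; 0.0477). BST2, the tethering factor of virions, fell by 0.50 (SE 0.11; edgeR adjusted p = 0.00282) and the secreted glycoprotein LGALS3BP fell by 0.52 (SE 0.07; 1.29e-05). LGALS3BP, IFITM3 (−0.13, SE 0.08) and IFITM2 (0.13, SE 0.09) were the most abundant of the list by CPM. RSAD2, read 14, 0 and 2 times in siControl and 10, 46 and 0 times in siDGUOK libraries, and MX1, at 3.26, 8.31 and 9.44 against 6.38, 20.4 and 8.93 CPM, were named after their values were seen, as genes whose siDGUOK replicate 2 was far above the others.

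siDGUOK replicate 2 was the highest library for 18 of these 39 genes (46.2%), against 18.9% of all genes tested, and for 3 of the 5 OAS and ISG20 genes. siControl replicate 2 was the highest for 10 of the 39 (25.6%), against 17.2% of all genes tested, and for 0 of the 5. Without siDGUOK replicate 2, edgeR called 0 of the list higher and 4 lower (BST2, LGALS3BP, GBP2 at −0.91 and PARP12 at −1.25), 13 of 39 values were positive and the median was −0.22. The values without siDGUOK replicate 2 were 0.45 for ISG15, 0.91 for IFITM1 and 0.58 for DDX58. OAS1 (1.29) and ISG20 (1.12) kept their size without siDGUOK replicate 2, whereas OAS2 was 1.57 and OAS3 0.20. Leaving out a library that is highest for many genes of a list lowers their values. OAS1 was nearly level over the siDGUOK libraries and ISG20 was highest in siDGUOK replicate 3. This contrast is therefore a description and not a test. Calls on this list also changed with other libraries: DDX58 was not called when any of the 6 was left out (0.44 to 0.76), IFITM1 not without siControl replicate 1 (1.09) or 2 (1.36) or siDGUOK replicate 1 (1.44), and BST2 not without siControl replicate 2 (−0.41) or siDGUOK replicate 3 (−0.42). DESeq2 did not call DDX58 (0.63), and BST2 lay just inside the fold threshold with shrunken DESeq2 values (−0.49) or without the count filter (−0.50). PARP12 (−0.85, SE 0.31) was also called without the count filter (−0.85) and with the replicate block (−0.95).

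**Figure D4:**
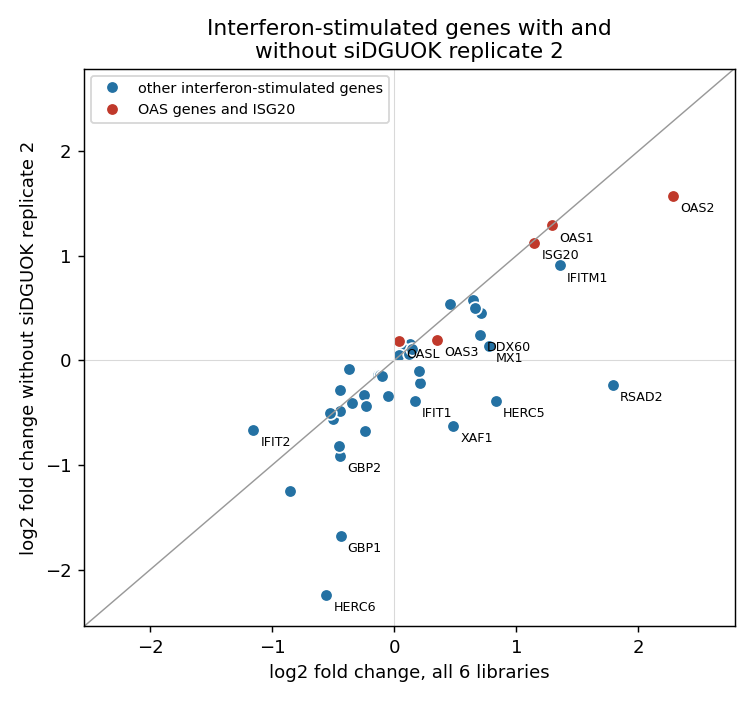
Log2 fold change of the OAS and ISG20 genes (red) and 39 other interferon-stimulated genes (blue) with all 6 libraries (horizontal axis) and without siDGUOK replicate 2 (vertical axis); the line marks equal values. OAS1 (1.29 on both axes) and ISG20 (1.15 and 1.12) lie close to the line. With any lower value counted, 4 of the 5 OAS and ISG20 genes and 31 of the 39 other genes lie below it. Genes that are highest in siDGUOK replicate 2 fall when it is left out, so the plot is a description and not a test.

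Several markers of other cell types were also highest in siDGUOK replicate 2, as were 18.9% of all genes tested. Of 11 immune cell markers in the table, 3 were highest there, 2 in siDGUOK replicate 1 and 2 in siDGUOK replicate 3. Their summed level without LYZ was 4.81, 8.85 and 4.77 CPM in siControl and 6.81, 19.5 and 6.17 CPM in siDGUOK libraries. With LYZ the sum was 1614, 1705 and 1705 CPM against 1903, 1765 and 1770 CPM. LYZ, the most abundant at a mean of 1735 CPM, was high in all 6 libraries, PTPRC and then CD2 were next, and HLA-DRA and LILRA4 had 0 counts throughout. CD2 stood at 7.08 CPM in siDGUOK replicate 2 and at 0 to 1.07 CPM in the other 5 libraries, and did not pass the count filter. None of the 6 immune markers tested was called by edgeR (0 at an unadjusted p under 0.05) or DESeq2, although edgeR called PTPRC higher with the replicate block (2.24) and without siControl replicate 2 (3.55). For these and the stromal and endothelial markers, the shares over all genes tested in edgeR were 7.42% called higher and 6.68% lower. An unadjusted p under 0.05 was found for 30.6% of all genes. Of 8 stromal and endothelial markers, 5 were highest in siDGUOK replicate 2. The sum of all 8 was 45.1, 43.0 and 39.0 CPM against 65.9, 120 and 51.5 CPM. ACTA2, the most abundant, was lowest in siDGUOK replicate 2, at 21.4 CPM, and had a log2 fold change of −0.18 (SE 0.18). VWF stood at 31.4 CPM in siDGUOK replicate 2 and at 0 to 1.41 CPM in the other 5 libraries. Of the 6 stromal and endothelial genes tested, COL1A1 rose (4.04, SE 0.39; edgeR adjusted p = 5.94e-07), from 0.481, 1.97 and 1.05 CPM in siControl to 20.2, 20.7 and 17.4 CPM in siDGUOK libraries. It was thus high in all 3 siDGUOK libraries, and its value without replicate 2 of that group was 3.99. PDGFRB fell (−1.02, SE 0.32; edgeR adjusted p = 0.0331, and not called without siControl replicate 1, 2 or 3 or siDGUOK replicate 1 or 3, at −0.81 to −1.13). COL3A1 did not pass the count filter with all libraries, at 0, 0.0533 and 0 CPM in siControl and 8.0, 15.6 and 0.414 CPM in siDGUOK libraries. DESeq2 called it higher before shrinkage and not after, and edgeR called it without the count filter (8.17) and without siControl replicate 1 (7.62), siControl replicate 3 (7.91) or siDGUOK replicate 3 (8.70), all fitted against counts near 0. Further higher calls by edgeR were VWF with the replicate block (3.36), PECAM1 without the count filter (3.46) or siDGUOK replicate 1 (3.99), and CDH5 without the count filter (2.84) or siControl replicate 3 (9.23). The part of these transcripts in the levels of the OAS genes, ISG20 and the other interferon-stimulated genes was not tested.

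Of the hepatocyte markers, 8 of 9 were called lower and 0 higher in edgeR, beside 6.68% and 7.42% of all genes tested. Without siControl replicate 1 or siDGUOK replicate 3, 7 were called lower, and HNF4A (−0.51) stood at −0.46 and −0.47. The sum of the 9 markers was 52875, 47121 and 46127 CPM in siControl and 27418, 23922 and 22503 CPM in siDGUOK libraries. ALB, the most abundant, stood at a log2 fold change of −1.58 (SE 0.15), TF at −0.95 (SE 0.08) and SERPINA1 at 0.02 (SE 0.07). The part of this shift in the values of OAS1 and ISG20 was not tested.

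Genes next to the OAS genes and ISG20 were examined because OAS1, OAS3 and OAS2 lie in a row. Within 100 kb of any of the 5, 10 other genes were considered, 3 were tested and 0 were called by edgeR or DESeq2, with 1 at an unadjusted p under 0.05 in edgeR. The shares over all genes tested were 14.1% called and 30.6% at an unadjusted p under 0.05 in edgeR, so 3 genes do not set the neighbourhood apart. AEN, which ends 3.39 kb before ISG20, had a log2 fold change of 0.36 (SE 0.10; edgeR adjusted p = 0.0162), under the fold threshold. DET1, also near ISG20, stood at −0.72 (SE 0.65) and P2RX7, near OASL, at −0.21 (SE 1.46). The antisense gene AC004551.1 spans part of OAS1 and all of OAS3 and OAS2, and had 0 counts in each library. It shares 222 exonic bases with OAS1 in Gencode 44. The counting used drops reads in bases shared by overlapping genes, but it ran on Gencode 27, whose overlap was not examined.

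Profiles over the 6 libraries were compared by Pearson's r of log2 CPM, as a description in which the 2 groups set much of the value. OAS1 was most like LINC00973 (r = 0.9998), GAS8 (0.9975) and RGS10 (0.9974), and 546 genes had r above 0.95 with it. ISG20 was most like CYSTM1 (0.9933), FMNL3 (0.993) and RP2 (0.9916), with 160 such genes. OAS2 was most like SPATA2L (0.9931), AC026979.1 (0.9902) and MEX3B (0.988), with 75 such genes, OAS3 like FTH1P11 (0.9895), RUFY2 (0.9843) and ADM2 (0.9838), with 23, and OASL like PIK3R3 (0.9901), PSMC3IP (0.9849) and STEAP2 (0.978), with 27. LINC00973, a noncoding RNA, differed far more than OAS1 in size, from 6.15 to 63.1 CPM (log2 fold change 3.34). Likeness among the libraries within a group was not examined.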

How the data were processed

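RNA-seq of 6 HepG2 libraries was analysed from the gene counts that the authors deposited. The authors aligned reads to GRCh38 (Gencode 27) with STAR 2.6.1, after a step for which the submitters' notes name Bowtie 1.1.2, removed low-complexity alignments (DUST above 4) and ran featureCounts 1.6.5 at its default settings with a Phred quality above 10. Those defaults ignore strand and drop multi-mapped reads and reads shared by overlapping genes, so counts of the related OAS genes leave out any read they share. The deposited counts were not normalized.

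Counts were filtered with filterByExpr (minimum count 10) and fitted by condition with the robust quasi-likelihood test of edgeR 4.0.16 in R 4.3.3, with TMM scaling and Benjamini-Hochberg adjustment over the 14476 genes tested. The thresholds for a call were 0.05 for the adjusted p and 0.5 for the size of the log2 fold change. Levels are CPM with TMM-scaled totals. Replicates of a group differed by more than sampling noise, and the design text calls them independent. Gene positions and lengths came from Gencode 44, which covered 99.4% of the tested genes. The test was checked on simulated counts, with a pass limit on the share of changed genes recovered that was relaxed after the first run.

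Alternatives were DESeq2 1.42.0 with and without shrinkage, RLE and upper-quartile scaling, no count filter, a replicate block, no fold threshold, and leaving out each library. The genes and lists were chosen with earlier results of these data known, and the motifs after the promoters had been read. Named are the 5 genes, DGUOK, called genes and the 3 most abundant of each list, tested genes within 100 kb, and the 3 genes most like each of the 5. Called hepatocyte genes are given as a count, and any other gene named was chosen after its values were seen. Some genes of the lists and neighbourhoods are not reported here.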

Additional observations from a re-analysis of the deposited data

How the results depend on the processing

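Over all alternatives, 1704 to 2847 genes were called (2041 as reported). OAS1 and ISG20 were called in each of them, and 2 or 3 of the 5 OAS and ISG20 genes were called in all, the addition being OAS2. Of 44 other interferon-stimulated genes, 5 were called as reported, 3 with shrunken DESeq2 fold changes and 2 to 4 when a library was left out, where fewer samples were fitted; the cause of the former was not tested. The replicate numbers did not pair the libraries (r of same-numbered deviations 0.024, 0.0166 and −0.00224). With the replicate block, 2077 genes, 2 of the 5 and 6 of the other interferon-stimulated genes were called.

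Of the log2 fold changes of named genes and of the called hepatocyte markers, 770 values under an alternative kept their sign and their side of the thresholds, 19 passed them newly, 25 no longer passed and 26 changed sign, all of the last from uncalled values. COL3A1 and IFNG, which did not pass the count filter with all libraries, are not among these and were called under 5 and 2 alternatives. ABCE1 changed sign under DESeq2 (−0.00351, or −0.00331 shrunken) and RLE scaling (−0.00274), and EIF2AK2 without the count filter (0.000295); the cause was not tested. With single libraries left out the ranges were −0.0992 to 0.0794 for ABCE1, −0.126 to 0.0478 for EIF2AK2, −0.0102 to 0.0687 for IFNGR1, −0.56 to 0.90 for OASL, −1.65 to 0.37 for P2RX7, −0.23 to 0.52 for PIK3R3, −0.31 to 0.41 for PSMC3IP, −0.175 to 0.0642 for REXO1, −0.23 to 3.62 for RSAD2, −0.0558 to 0.0618 for SERPINA1 and −6.14e-05 to 0.76 for STEAP2. The median of all genes moved from 0.02 to 0.14 without the count filter and to 0.13 under unshrunken DESeq2, which also cover genes of low count. OAS2 and OASL had under 10 counts in at least 1 library, but their libraries of a group also differed by more than counting error.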

Other observations

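siDGUOK replicate 1 held more genes at low counts than the other libraries. It had a count for 21057 genes, against 16205 to 17583 in the other 5, and 6457 genes at 1 to 10 counts, against 1591 to 3563. Its OAS1 (138 CPM) and ISG20 (29.3 CPM) levels were within or next to those of the other siDGUOK libraries.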
